A study of Mus musculus with 224 samples.

Results

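The genes of the spliceosome core and of the splicing factor families were followed in the brains of mice exposed to chronic intermittent ethanol vapor (CIE), to ethanol drinking, to both or to neither. They were chosen by name, as probesets with 1 gene symbol of the platform beginning with Snrp, Srsf, Sf3a, Sf3b or Hnrnp, with 1 Snrp gene left out by the rule. This gave 46 of 18193 genes and 138 of the 34945 probesets with 1 symbol, or of 45037 in all, and 137 of these probesets had values in the hippocampus and the central amygdala. The families were the Sm core with 5 genes, the U1 and U2 small nuclear ribonucleoprotein (snRNP) proteins with 3, SF3A with 3, SF3B with 6, the SR proteins with 10 and the heterogeneous nuclear ribonucleoproteins (hnRNPs) with 19. Another 10 probesets carried several symbols including one of these families, and 4 family genes were represented only by such probesets and were not followed. In each region a gene was represented by its brightest probeset, the one with the highest mean over all arrays, and its other probesets, 92 over 35 genes, were described beside it.

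Splicing removes introns from the primary transcript. Rings of Sm proteins assemble on the small nuclear RNAs, the U1 snRNP marks the start of the intron, and the U2 snRNP, with its SF3A and SF3B subcomplexes, takes hold of the branch point near its end. SR proteins mostly bind exonic enhancers and recruit this machinery, hnRNPs often bind silencers and oppose it, and many members of both families tune their own messenger RNA through alternative or retained exons, so that probesets in different parts of 1 gene can report different transcripts. In brain, shifts in the balance of these factors change the isoforms of ion channels and synaptic proteins.

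All mice were male C57BL/6J, bought at 10 weeks of age, and each array held RNA of 1 region of 1 mouse. CIE Drinking mice breathed ethanol vapor and had ethanol to drink between the vapor cycles, Air Drinking mice breathed air and drank ethanol, CIE NonDrinking mice breathed vapor and had water only, and Air NonDrinking mice had neither. Drinking groups had 6 weeks of access to 15% (v/v) ethanol for 2 h a day before the vapor, and 5 drinking days after each cycle of 4 days in the chambers at 16 h a day and 72 h of abstinence, over 4 cycles. Every group, the controls included, received pyrazole at 1 mmol/kg, an inhibitor of ethanol breakdown, and vapor groups also received 1.6 g/kg of ethanol where controls received saline. By the study's account drinking groups were 22 h and nondrinking vapor mice about 8 days from their last ethanol, so time since ethanol and drinking cannot be told apart. The 224 arrays covered the hippocampus (HPC) and the prefrontal cortex (PFC), and 3 smaller nuclei, the accumbens (NAC), the central amygdala (CeA) and the bed nucleus of stria terminalis (BNST), with 8 to 12 arrays in a group. Differences are log2 fold changes of the first group minus the second ± their standard error, and a probeset was called at a limma p, adjusted over all probesets of the region and comparison, of 0.01 or less. Comparison 1 set CIE Drinking against Air Drinking, Comparison 2 CIE NonDrinking against Air NonDrinking, Comparison 3 CIE Drinking against CIE NonDrinking, Comparison 4 CIE Drinking against Air NonDrinking, Comparison 5 CIE NonDrinking against Air Drinking, and Comparison 6 Air Drinking against Air NonDrinking. The comparisons share groups and are not independent. In bulk tissue, fewer cells of a type and less RNA per cell cannot be told apart.

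The region labels were checked against known region genes as percentile ranks within arrays. Prox1, Zbtb20 and Dsp ranked highest in HPC, Drd1, Drd2 and Rgs9 in NAC, Tbr1 and Fezf2 in PFC, Crh and Tac2 in BNST and Prkcd in CeA, while Wfs1 and Dlk1 ranked highest in NAC and Cux2 in BNST, against their lists. There were 10 arrays with a quality weight below 0.4, 3 in PFC, 4 in NAC, 2 in BNST and 1 in CeA.

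The results below turn on a few genes, and the promoters of 5 of them are shown first because some of their probesets were called in the HPC in mice with both exposures against mice with neither, higher for Sf3b2, Srsf11 and Hnrnpr and lower for Srsf1 and Srsf10. The 200 bases before the most upstream RefSeq start (GRCm38.p6) lie at chr19:5295458-5295657 on the minus strand for Sf3b2, chr3:158036607-158036806 on the minus strand for Srsf11, chr4:136310742-136310941 on the plus strand for Hnrnpr, chr11:88047173-88047372 on the plus strand for Srsf1 and chr4:135855871-135856070 on the plus strand for Srsf10. Capitals mark matches, on either strand, to a CCAAT box (CCAAT), a GC box (GGGCGG) or an ETS core (CCGGAAG). Matches to TATAAA, TGACGTCA and CACGTG were also searched, and none was found in these 5 windows.
Sf3b2: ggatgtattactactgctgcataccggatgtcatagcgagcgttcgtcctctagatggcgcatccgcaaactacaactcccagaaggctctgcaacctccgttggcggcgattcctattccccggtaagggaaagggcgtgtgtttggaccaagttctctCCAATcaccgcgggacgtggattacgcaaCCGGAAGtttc
Srsf11: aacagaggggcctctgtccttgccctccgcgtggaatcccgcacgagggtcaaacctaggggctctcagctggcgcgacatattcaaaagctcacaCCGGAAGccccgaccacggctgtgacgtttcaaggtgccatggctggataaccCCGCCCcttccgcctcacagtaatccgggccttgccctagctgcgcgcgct
Hnrnpr: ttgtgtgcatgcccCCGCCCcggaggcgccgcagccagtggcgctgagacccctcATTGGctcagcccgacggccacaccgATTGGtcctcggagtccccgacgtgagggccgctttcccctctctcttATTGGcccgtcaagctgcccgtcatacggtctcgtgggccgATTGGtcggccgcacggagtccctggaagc
Srsf1: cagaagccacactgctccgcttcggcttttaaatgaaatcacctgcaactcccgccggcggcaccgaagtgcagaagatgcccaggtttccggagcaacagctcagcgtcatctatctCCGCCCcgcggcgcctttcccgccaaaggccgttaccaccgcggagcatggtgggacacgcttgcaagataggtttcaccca
Srsf10: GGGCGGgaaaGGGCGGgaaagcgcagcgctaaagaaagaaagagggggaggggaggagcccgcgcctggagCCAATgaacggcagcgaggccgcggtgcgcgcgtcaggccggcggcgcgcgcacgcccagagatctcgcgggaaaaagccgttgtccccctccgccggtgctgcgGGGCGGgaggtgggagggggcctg
Sf3b2 and Srsf11 each held 1 ETS core, Hnrnpr held 4 CCAAT boxes, and Srsf10 held 3 GC boxes. Over the 54 promoters of the 41 members that had a RefSeq promoter, a GC box was in 62.96%, against 31.05% of 32851 mouse promoters of the same length. A CCAAT box was in 44.44% against 29.35%, and an ETS core in 27.78% against 6.292%. TATAAA was in 5.556% against 9.96%, TGACGTCA in 1.852% against 1.47%, and CACGTG in 3.704% against 5.26%. These are descriptions of letters, and no motif was shared by all 5 windows.

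One feature of the labels is given before the comparisons. Mouse numbers in the labels ran from 1 to 21 in CIE Drinking, 33 to 44 in CIE NonDrinking and 45 to 56 in Air NonDrinking, whereas Air Drinking held 2 separate runs, 23 to 32 and 57 to 62. The split into runs was made after the values were seen. In NAC, HPC, BNST and CeA, but not in PFC, the 2 runs of Air Drinking mice stood apart on some splicing factor probesets. For Sf3b2, the SF3B subunit beside the branch point, probeset 1429362_a_at in HPC had log2 levels from 9.81 to 10.25 (median 10.00) in the 6 mice of the first run and from 8.86 to 9.22 (median 9.15) in the 5 of the second. In NAC it ranged from 10.02 to 10.32 in 7 mice of the first run and from 9.23 to 9.48 in 5 of the second. The runs did not overlap in either region. In BNST the ranges were 9.89 to 10.40 and 9.22 to 9.57, and in CeA, with 8 and 4 mice, 9.85 to 10.27 and 9.00 to 9.28, again without overlap. In PFC the runs lay over each other, from 10.02 to 10.46 in 5 mice and from 10.22 to 10.56 in 6.

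With a mean of its own for each run, the first run minus the second was 0.92 ± 0.08 for this Sf3b2 probeset in HPC (adjusted p = 4.36e-11), 0.76 ± 0.08 in NAC (adjusted p = 4.11e-09), 0.69 ± 0.09 in BNST (adjusted p = 3.65e-06), 0.89 ± 0.11 in CeA (adjusted p = 4.40e-05) and -0.03 ± 0.13 in PFC (adjusted p = 1). Srsf11, an SR-related factor, differed by 0.83 ± 0.11 in HPC and 0.68 ± 0.16 in NAC on 1439095_at, and Hnrnpr, an hnRNP found in neurites, by 0.73 ± 0.14 and 0.74 ± 0.16 on 1452030_a_at. These were differences between mice of 1 treatment group. The runs were set apart after these values were seen, so the p-values here and the counts below describe the gap and do not test the split.
Between the runs, 8 member probesets were called in HPC, 5 in NAC, 1 in BNST and 1 in CeA, and none in PFC. There 3 of 138 had an unadjusted p under 0.05, against 2.25% of all probesets. Over all probesets with 1 symbol the shares called were 4.25% in HPC, 2.16% in NAC, 0.868% in BNST, 0.834% in CeA and 0% in PFC. The 8 in HPC were 2 of Sf3b2, 2 of Hnrnpr and 1 each of Srsf11, Sf3b1, Hnrnpab and Srsf1, of which only Srsf1 (-0.38 ± 0.08 on 1430982_at) was lower in the first run.

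The means of the Sf3b2 probeset followed the mouse numbers through all groups outside PFC. In HPC they were 10.13 in CIE Drinking (mice 1 to 21), 10.02 in the first Air Drinking run, 9.74 in CIE NonDrinking, 9.38 in Air NonDrinking and 9.10 in the second Air Drinking run. The same order held in NAC, with means of 10.21, 10.10, 9.92, 9.53 and 9.34, in BNST, with 10.42, 10.07, 9.90, 9.79 and 9.38, and in CeA, with 10.12, 10.00, 9.60, 9.28 and 9.11. PFC gave 10.40, 10.36, 9.99, 10.23 and 10.39, which is another order. Since each other group filled a range of mouse numbers of its own, mouse number and treatment cannot be told apart in comparisons outside Air Drinking.

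**Figure D1:**
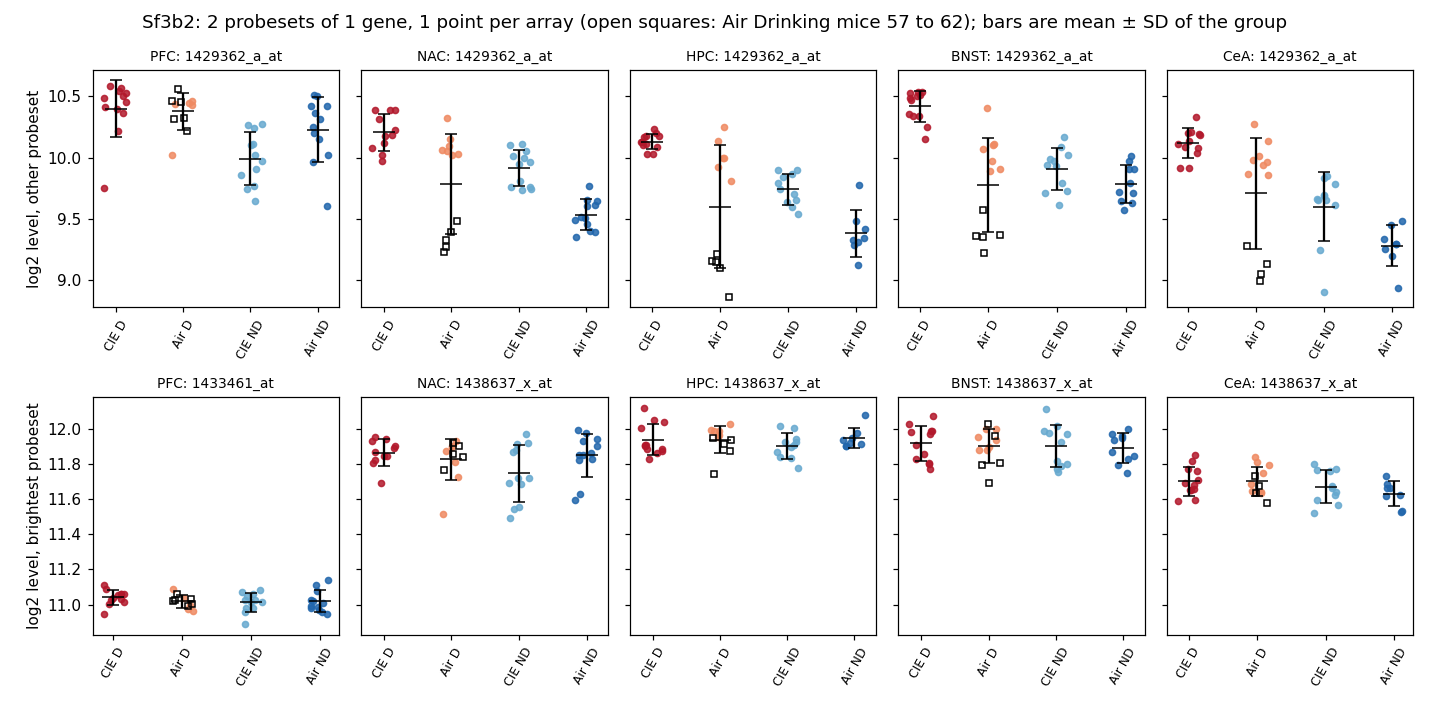
Log2 level of Sf3b2 on 1429362_a_at (top) and on the brightest probeset of the gene (bottom), 1 point per array, by group (horizontal axis) and region (columns), with bars at mean ± SD of a group. Open squares are Air Drinking mice 57 to 62, which lie below the other Air Drinking mice in NAC, HPC, BNST and CeA in the top row and among them in PFC and in the bottom row.

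Comparison 1, the vapor comparison among drinkers, was also taken against each run apart. With Air Drinking as 1 group, 3 member probesets were called in HPC (1.33% of all probesets), 2 in BNST (0.975%), 2 in PFC (2.04%), and none in NAC (0.255%) or CeA (0.169%). At an unadjusted p under 0.05 were 38 of 138 in NAC, against 16.6% of all probesets, and 16 of 137 in CeA, against 15.5%. Against the mice of the first run, CIE Drinking gave 0 called members in all 5 regions, with 17 members in NAC, 6 in HPC, 14 in BNST, 12 in CeA and 26 in PFC at an unadjusted p under 0.05, that is of 137 or 138, where 12.6%, 7.59%, 12.6%, 10.8% and 16.6% of all probesets were. The share over all probesets was then 0% in NAC, 0% in HPC, 0% in BNST, 0% in CeA and 0.498% in PFC. Against the second run, 11 members were called in HPC (6.51%), 8 in NAC (3.81%), 11 in BNST (4.49%), 6 in CeA (2.23%) and none in PFC (0.123%). The runs held 4 to 8 arrays, fewer than the whole group, so these counts are not on an equal footing. The cause of their differences was not tested.
Among named probesets, Sf3b2 on 1429362_a_at differed in HPC by 0.11 ± 0.07 from the first run (adjusted p = 0.664) and by 1.03 ± 0.07 from the second (adjusted p = 9.26e-15). In BNST it differed by 0.35 ± 0.07 from the first run (adjusted p = 0.0555) and by 1.04 ± 0.08 from the second (adjusted p = 1.83e-12). Its Comparison 1 values over the whole Air Drinking group, 0.53 ± 0.11 in HPC and 0.64 ± 0.09 in BNST, were called and lie between these. With CIE Drinking and Air Drinking alone in the fit, no member was called in HPC and 1 in BNST. The third HPC probeset, Hnrnpab on 1448144_at, an hnRNP of A and B type, was -0.18 ± 0.04 against the whole group (adjusted p = 0.00216), -0.14 ± 0.04 against the first run (adjusted p = 0.648) and -0.24 ± 0.04 against the second (adjusted p = 4.88e-05).

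Comparison 4, between mice with both exposures and mice with neither, draws its means from no Air Drinking array, but the fit takes its variance from all 4 groups, Air Drinking with its 2 runs included. With 1 mean for each run, its called member probesets went from 16 to 17 in HPC, 4 to 5 in NAC, 3 to 4 in BNST and 5 to 6 in CeA, and stayed at 3 in PFC. The shares called over all probesets are not given for this refit. By the brightest probeset, few members differed. In PFC 2 of 46 fell (0.61% of all genes called), in NAC 2 rose (0.995%), in HPC 1 fell (1.45%), and in BNST (0.332%) and CeA (0.318%) none was called. At an unadjusted p under 0.05, BNST had 2 of 46 higher and 2 lower, where 3.21% and 7.62% of all genes were. CeA had 0 higher and 2 lower, where 1.85% and 6.07% were. The median over the 46 was 0.055 in PFC against -0.013 over all genes, 0.015 against -0.027 in NAC, -0.058 against -0.022 in HPC, -0.001 against -0.013 in BNST and -0.017 against -0.031 in CeA. At an unadjusted p under 0.05, 16 members were higher and 4 lower in PFC, and 2 higher and 14 lower in HPC. Over all genes 12.6% were higher and 15.5% lower in PFC at that p, and 5.08% higher and 12.0% lower in HPC.

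In the Sm core, whose proteins form the ring around each spliceosomal RNA, Snrpd3 fell in PFC. On 1422884_at it ranged from 9.70 to 10.51 (median 9.92) in CIE Drinking and from 10.06 to 10.75 (median 10.48) in Air NonDrinking, a difference of -0.44 ± 0.09 (adjusted p = 0.00313). The groups overlapped, and 10 of 12 CIE Drinking arrays lay below the Air NonDrinking mean. The call was lost in a fit of these 2 groups alone. Another probeset of the gene, 1449629_s_at, had an adjusted p of 0.93, and the difference of the probesets was itself called (0.43 ± 0.09, adjusted p = 0.00619). Snrpe was 0.10 ± 0.04 in PFC (adjusted p = 0.127) and between 0.01 and 0.08 elsewhere, and none of the 5 Sm genes was called by the brightest probeset outside PFC.
Among U1 and U2 proteins, Snrpb2, which binds U2 RNA, rose in NAC by 0.14 ± 0.03 (adjusted p = 0.00991), a call lost after a second quantile normalization. Snrpc, which steadies the pairing of U1 with the intron start, was 0.13 ± 0.05 in PFC (adjusted p = 0.0600) and -0.08 ± 0.02 in NAC (adjusted p = 0.0267). Snrpa1, the partner of Snrpb2 on U2, lay between -0.02 and 0.10 in the 5 regions.

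No SF3A gene was called. Sf3a2, which joins the U2 particle late in its assembly, was below 0 in every region, from -0.15 ± 0.04 in HPC (adjusted p = 0.0313) to -0.06 ± 0.03 in CeA (adjusted p = 0.510), and Sf3a3 lay between -0.05 and -0.01. No SF3B gene was called by its brightest probeset either. Sf3b1, which holds the branch point and is the family's drug target, lay between -0.04 and 0.02, and Sf3b5, a small scaffold subunit, reached 0.11 ± 0.03 in HPC (adjusted p = 0.0161).

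Of the SR proteins, Srsf5 fell in PFC by 0.37 ± 0.07 on the log2 scale (adjusted p = 0.00334). CIE Drinking arrays ranged from 11.76 to 12.63 (median 12.10) and Air NonDrinking arrays from 12.35 to 12.60 (median 12.49). The CIE Drinking arrays were spread wide, with an SD of 0.28 against 0.07, and the groups overlapped. The call was lost in a fit of these 2 groups alone and without the low-weight arrays. Srsf5 was -0.23 ± 0.10 in NAC (adjusted p = 0.211) and 0.13 ± 0.10 in CeA (adjusted p = 0.636), neither called. Srsf1, the prototype SR protein, was -0.13 ± 0.04 in HPC on its brightest probeset (adjusted p = 0.0251).
Of the hnRNPs, Hnrnpul1 rose in NAC by 0.14 ± 0.03 (adjusted p = 0.00504), and Hnrnpf, which binds runs of G, fell in HPC by 0.19 ± 0.05 (adjusted p = 0.00643). The first call was lost after a second quantile normalization and the second in a fit of the 2 groups alone. In HPC 18 of 19 hnRNP genes were not called, and their median was -0.060, against 0.062 in PFC.

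**Figure D2:**
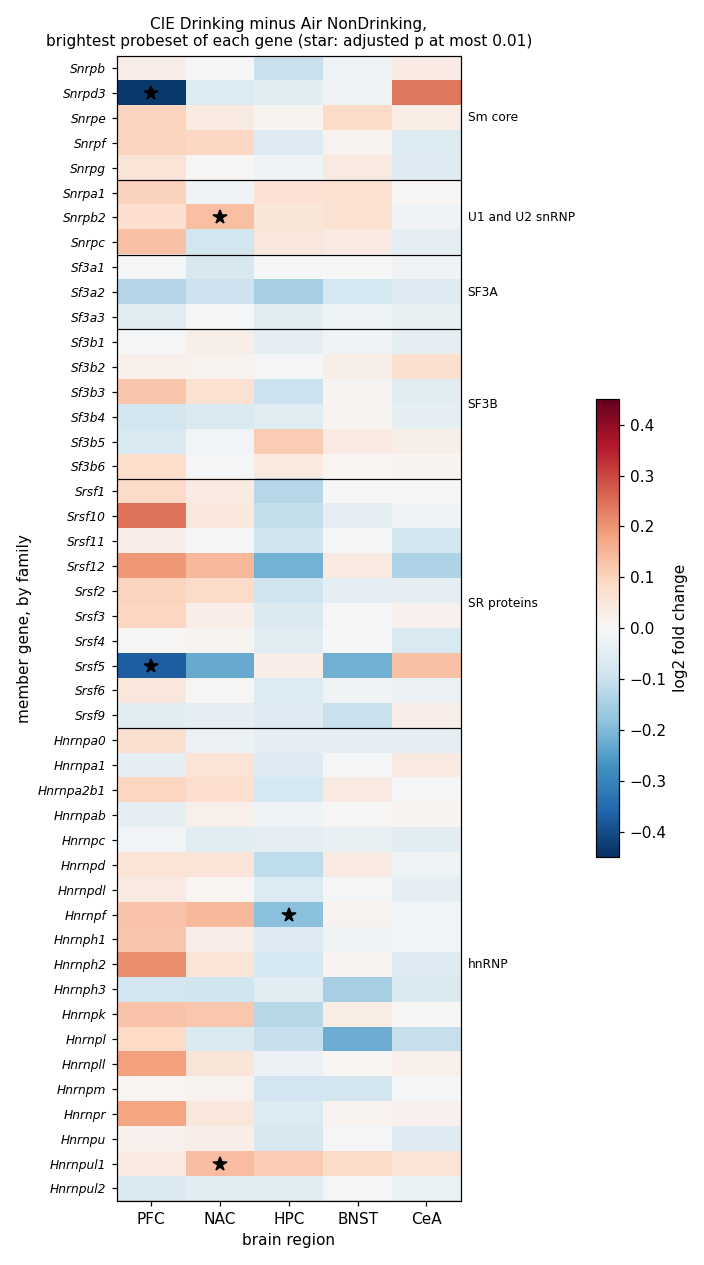
Log2 fold change of CIE Drinking against Air NonDrinking for the brightest probeset of each of the 46 genes (rows, by family) in the 5 regions (columns), with stars where the adjusted p was at most 0.01. The 5 stars are Snrpd3 and Srsf5 in PFC (lower), Snrpb2 and Hnrnpul1 in NAC (higher) and Hnrnpf in HPC (lower).

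In Comparison 4 a larger share of the other probesets of these genes than of the brightest was called in HPC, BNST and CeA. The same held over all genes there. In PFC and NAC the members' share was smaller among the other probesets. In HPC 15 of 91 other probesets were called (6 higher and 9 lower), where 6.25% of such probesets over all genes were called. In CeA 5 of 91 rose (3.45%), in BNST 3 of 92 (2.13%), in NAC 2 of 92 (4.2%) and in PFC 1 of 92 (0.698%). Outside HPC these shares rest on few probesets.
Sf3b2 on 1429362_a_at rose in 4 regions. In HPC it ranged from 10.03 to 10.24 (median 10.13) in CIE Drinking and from 9.12 to 9.78 (median 9.33) in Air NonDrinking, without overlap, a difference of 0.75 ± 0.12 (adjusted p = 0.000106). The difference was 0.67 ± 0.10 in NAC (adjusted p = 9.05e-06), 0.63 ± 0.10 in BNST (adjusted p = 0.000113) and 0.84 ± 0.13 in CeA (adjusted p = 9.61e-05), in each with no overlap, and 0.17 ± 0.09 in PFC (adjusted p = 0.182). The brightest Sf3b2 probeset stayed between -0.01 and 0.07. A second Sf3b2 probeset, 1456040_at, rose by 0.44 ± 0.08 in HPC, 0.30 ± 0.07 in BNST and 0.52 ± 0.08 in CeA.

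Srsf11 on 1439095_at rose in HPC and CeA. In HPC it ranged from 7.75 to 8.22 (median 8.05) in CIE Drinking and from 7.17 to 7.58 (median 7.40) in Air NonDrinking, without overlap, a difference of 0.63 ± 0.13 (adjusted p = 0.000854). In CeA it was 0.71 ± 0.13 (adjusted p = 0.000400), and in NAC (0.42, adjusted p = 0.0467) and BNST (0.61, adjusted p = 0.0146) it was not called. Its brightest probeset was -0.09 ± 0.04 in HPC (adjusted p = 0.173).
Hnrnpr on 1452030_a_at ranged in HPC from 8.91 to 9.24 (median 8.97) in CIE Drinking and from 8.22 to 8.71 (median 8.42) in Air NonDrinking, again without overlap. It rose by 0.63 ± 0.13 in HPC (adjusted p = 0.00165) and 0.68 ± 0.13 in CeA (adjusted p = 0.000946), and was -0.27 ± 0.08 in PFC. Hnrnpab on 1459880_at rose in NAC, HPC, BNST and CeA by 0.33 to 0.37, and Sf3b1 on 1418562_at rose in HPC by 0.27 ± 0.07 (adjusted p = 0.00927). The Hnrnpab probeset was dim. In Air Drinking its highest level was 6.80 in HPC, where array medians were 6.87 to 6.95. In NAC it was 6.47, where array medians were 7.01 to 7.07.

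The rise was set against the brightest probeset of the same gene on the same array. In HPC 9 of 91 members' differences were called, 8 of them higher, which is 9.89% where 11% of such pairs over all genes were called. CeA gave 9 of 91, all higher (7.17% over all genes), NAC 3 (4.93%), BNST 3 (3.97%) and PFC 2 (0.836%). The share in HPC was thus below that of all genes, and that in CeA a little above. Within Sf3b2 the difference was 0.76 ± 0.12 in HPC and 0.77 ± 0.13 in CeA, within Srsf11 0.73 ± 0.13 and 0.79 ± 0.13, and within Hnrnpr 0.69 ± 0.13 and 0.66 ± 0.13. In PFC the Hnrnpr difference had the opposite sign, -0.45 ± 0.08 (adjusted p = 0.00120).

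**Figure D3:**
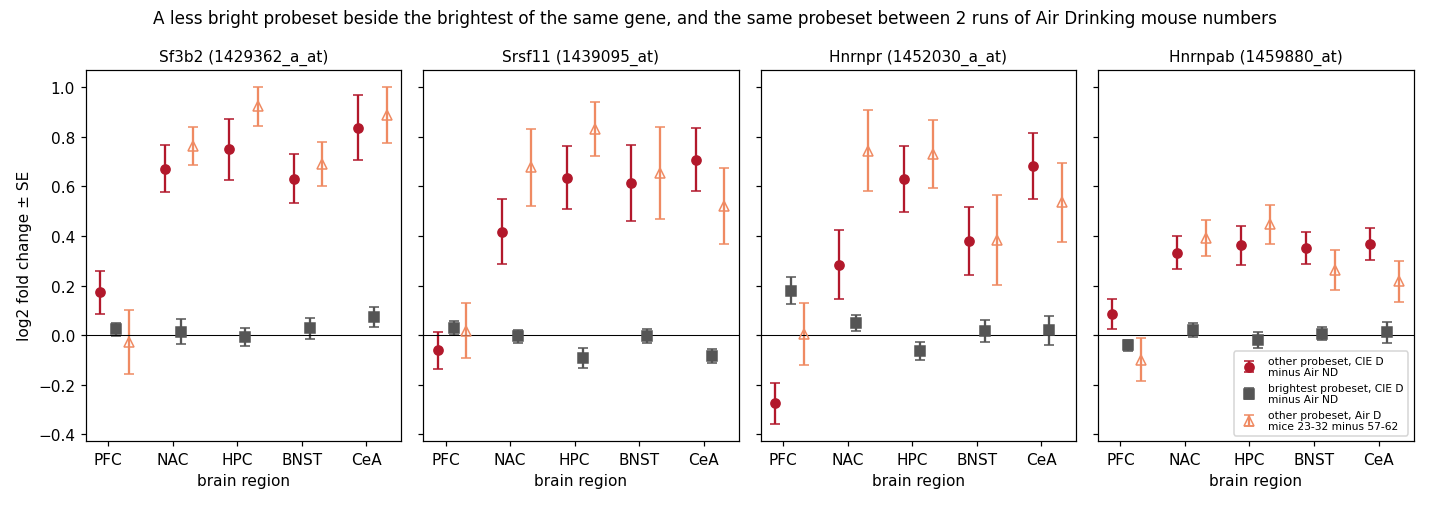
Log2 fold change ± SE by region for 4 genes: a less bright probeset (circles) and the brightest probeset (squares) in CIE Drinking against Air NonDrinking, and the less bright probeset between Air Drinking mice 23 to 32 and 57 to 62 (open triangles). Outside PFC circles and triangles lie above 0 for all 4 genes and squares lie closer to 0. For each gene the less bright probeset with the highest HPC value was drawn, so the height of the circles in HPC follows from that choice. Less bright probesets below 0 in HPC, among them 1437526_x_at of Hnrnpr and 1448144_at of Hnrnpab, are not drawn.

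The 9 other probesets that fell in HPC were 3 of Srsf1 and 1 each of Srsf10, Hnrnpa2b1, Hnrnpab, Hnrnpdl, Hnrnpf and Snrpd3. This is 9 of 91, where 0.805% of other probesets over all genes were called lower in HPC. Srsf1 on 1428100_at ranged from 9.97 to 10.33 (median 10.12) in CIE Drinking and from 10.15 to 10.59 (median 10.38) in Air NonDrinking, a difference of -0.25 ± 0.06 (adjusted p = 0.00293). The groups overlapped, yet all 12 CIE Drinking arrays lay below the Air NonDrinking mean. Its probesets 1430982_at and 1452430_s_at gave -0.32 ± 0.07 and -0.30 ± 0.07.
Srsf10, an SR protein that represses splicing when dephosphorylated, fell by 0.22 ± 0.04 on 1418526_at (adjusted p = 0.000931), from 8.79 to 9.03 in Air NonDrinking and from 8.58 to 8.97 in CIE Drinking. Hnrnpa2b1, which carries RNA along processes, was -0.17 ± 0.04 on 1433830_at, Hnrnpab -0.17 ± 0.04 on 1448144_at, Hnrnpdl -0.14 ± 0.03 on 1420093_s_at, Hnrnpf -0.21 ± 0.05 on 1437099_x_at and Snrpd3 -0.17 ± 0.04 on 1422885_at. With the 2 groups alone in the fit the calls of Hnrnpa2b1, Hnrnpdl and Hnrnpf were lost.
Between the 2 runs of Air Drinking mice in HPC, of these probesets only Srsf1 on 1430982_at was called. The others lay between -0.21 (Srsf1 on 1452430_s_at, adjusted p = 0.136) and -0.04 (Srsf10, adjusted p = 0.832), all below 0, which is the direction of their Comparison 4 difference.

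The Comparison 4 difference was next compared between regions. As mouse number and treatment cannot be told apart, a difference between regions cannot be assigned to the exposures. The Sf3b2 means above followed mouse number outside PFC but not in PFC. Comparison 4 in HPC minus Comparison 4 in PFC was called for 26 of 137 member probesets, 19.0%, where 3.36% of all probesets were called. Of these, 22 probesets of 15 genes were lower in HPC, 16.1% of members where 1.71% of all probesets were called lower. All 22 were above 0 in PFC and below 0 in HPC, but picking probesets by a negative difference favours these signs. Only 8 were called in HPC and 1 in PFC, so most of the shifts within a region were not called. The 4 probesets higher in HPC were of Sf3b2, Srsf11 and Hnrnpr, genes that also had probesets called between the Air Drinking runs in HPC. By family, 15 of the 22 were hnRNP probesets (11 genes) and 7 SR protein probesets (4 genes), and none was of the Sm core, the U1 and U2 proteins, SF3A or SF3B. The median HPC minus PFC difference was -0.14 over 33 SR probesets, -0.11 over 58 hnRNP probesets, -0.09 over all members and 0.01 over all probesets.

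Srsf1 on 1428100_at was 0.14 in PFC and -0.25 in HPC, a difference of -0.39 ± 0.07 (adjusted p = 7.40e-05). In PFC it ranged from 9.13 to 9.54 (median 9.27) in CIE Drinking and from 8.92 to 9.45 (median 9.16) in Air NonDrinking. Srsf10 differed by -0.36 ± 0.07 on 1418526_at and by -0.35 ± 0.08 on its brightest probeset, 1423982_at. Hnrnpdl gave the widest gap among the 22, 0.38 in PFC and -0.18 in HPC on 1428224_at (-0.56 ± 0.14, adjusted p = 0.00557).
Hnrnph1, which binds runs of G as Hnrnpf does, differed by -0.50 ± 0.12 on 1437267_x_at and by -0.19 ± 0.04 on its brightest probeset. Hnrnpf differed by -0.32 ± 0.07, Hnrnpa2b1 by -0.31 ± 0.06 and Hnrnpab by -0.33 ± 0.07. Of genes called in no single comparison, and named here after their values were seen, Hnrnpc, which binds runs of U, differed by -0.32 ± 0.07, Hnrnpk, which binds runs of C, by -0.25 ± 0.05, Hnrnpd, a factor of transcript decay, by -0.30 ± 0.07, Hnrnph2 by -0.29 ± 0.07, Hnrnpll by -0.21 ± 0.05 and Srsf3 by -0.28 ± 0.07 on 1416152_a_at. Hnrnpr was split between its probesets, at -0.46 ± 0.11 on 1437526_x_at, -0.24 ± 0.06 on 1427129_a_at and 0.91 ± 0.18 on 1452030_a_at. Srsf11 was split likewise, at -0.19 ± 0.05 on 1427269_at and 0.70 ± 0.18 on 1439095_at.

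Without the 10 arrays of low quality weight the HPC minus PFC count was 16, all of them among the 26. Over all 34263 probesets 830 were then called, where 1152 had been with all arrays. No HPC array was among those 10, and 3 were from PFC. The other regions gave fewer calls: 7 in CeA minus PFC (2.23% over all probesets), 3 in BNST minus PFC (0.563%) and 1 in NAC minus PFC (0.163%). In CeA, Hnrnpr on 1452030_a_at (0.96 ± 0.18), Srsf11 on 1439095_at (0.77 ± 0.18), Sf3b2 on its 2 raised probesets (0.66 ± 0.16 and 0.49 ± 0.11) and Hnrnpul2 (0.66 ± 0.17) were higher, and Hnrnpc and Hnrnpd (-0.30 ± 0.07 and -0.31 ± 0.07) lower. In BNST, Hnrnpab (-0.32 ± 0.07), Srsf10 (-0.31 ± 0.07) and Hnrnpc (-0.27 ± 0.07) were lower, and in NAC Snrpc (-0.21 ± 0.05). Without the low-weight arrays Hnrnpab (-0.25, adjusted p = 0.0102) and Hnrnpc (-0.23, adjusted p = 0.0479) lost their calls in BNST, and 3 of the 7 in CeA were kept.

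**Figure D4:**
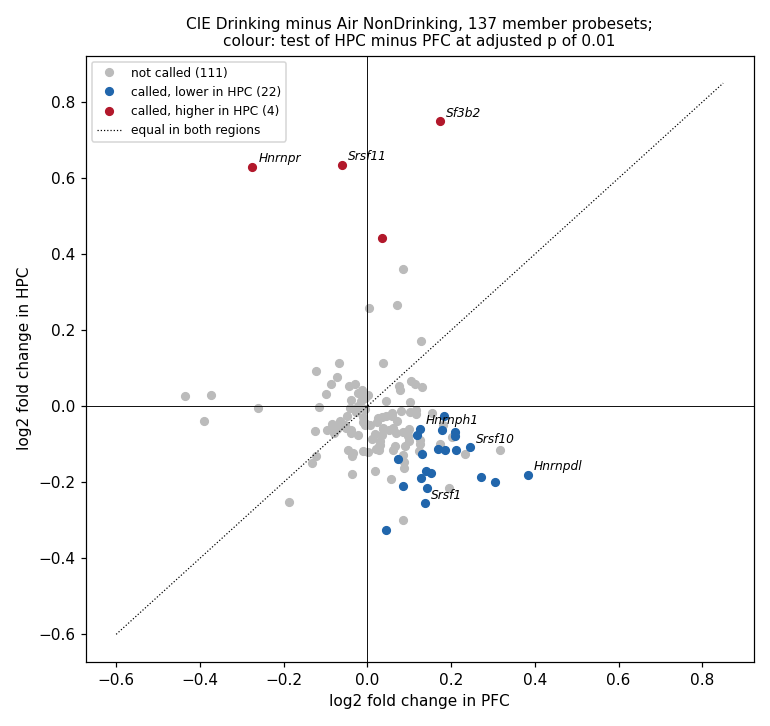
Log2 fold change of CIE Drinking against Air NonDrinking in PFC (horizontal axis) and HPC (vertical axis), 1 point for each of 137 member probesets, coloured where the test of HPC minus PFC was called. The 22 blue points (lower in HPC) lie right of and below 0, and the 4 red points (higher in HPC) are probesets of Sf3b2, Srsf11 and Hnrnpr.

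The PFC was the region in which every comparison called members. Comparison 2, vapor against air without drinking, called 3 (1.27% of all probesets), Comparison 3 called 3 (1.91%), Comparison 5 called 2 (1.58%), Comparison 6 called 3 (1.34%) and the interaction of vapor and drinking called 5 (3.22%). Most of these member shares lay near those of all probesets. No member differed between the 2 Air Drinking runs in PFC.
Srsf11 on 1439095_at was lowest in CIE NonDrinking, at 7.92 to 8.49 (median 8.21), below Air NonDrinking at 7.99 to 8.75 (median 8.60) and Air Drinking at 8.49 to 9.04 (median 8.71). It fell by 0.36 ± 0.07 in Comparison 2 (adjusted p = 0.00265) and by 0.56 ± 0.08 in Comparison 5 (adjusted p = 4.86e-06), and rose by 0.30 ± 0.07 in Comparison 3 (adjusted p = 0.00915). Sf3b2 on 1429362_a_at was also lowest in CIE NonDrinking, with 0.41 ± 0.09 in Comparison 3 (adjusted p = 0.00285) and -0.38 ± 0.09 in Comparison 5 (adjusted p = 0.00560). Hnrnpr on 1452030_a_at fell by 0.40 ± 0.08 in Comparison 2 (adjusted p = 0.00313). With the 2 groups alone in the fit no Comparison 2 call was kept.

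Hnrnpa1, an abundant silencer of exons, carried most of the PFC interaction. On 1455740_at the median was 5.71 in Air NonDrinking, 5.44 in CIE NonDrinking, 5.46 in Air Drinking and 5.59 in CIE Drinking, so that either exposure alone went with a lower level than neither. These are dim levels, below the PFC array medians of 6.07 to 6.14. It fell by 0.31 ± 0.07 in Comparison 2 (adjusted p = 0.00781) and by 0.32 ± 0.07 in Comparison 6 (adjusted p = 0.00663), and the interaction was 0.45 ± 0.10 (adjusted p = 0.00443). The interaction was also called on 1436549_a_at (0.30 ± 0.06, adjusted p = 0.00132) and on the brightest probeset, 1455305_x_at (0.20 ± 0.04, adjusted p = 0.00314). On 1436549_a_at Comparison 3 was 0.21 ± 0.04 (adjusted p = 0.00215), and on 1455305_x_at Comparison 6 was -0.15 ± 0.03 (adjusted p = 0.00423). The Comparison 6 calls in PFC, for Hnrnpa1 and Sf3b1, were lost with the 2 groups alone in the fit and without the low-weight arrays.
The Sm gene Snrpg had an interaction of 0.18 ± 0.04 (adjusted p = 0.00504), with medians of 10.72 in CIE Drinking, 10.59 in Air Drinking, 10.61 in CIE NonDrinking and 10.67 in Air NonDrinking. Srsf2, an SR protein of nuclear speckles, had one of -0.38 ± 0.09 on 1415807_s_at (adjusted p = 0.00656). Probesets that end in _x_at or _s_at, here 1 of Hnrnpa1 and those of Snrpg and Srsf2, can pick up related sequences, and without such probesets 2 of the 5 interactions remained.

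Hnrnph1 rose in Comparison 1 in PFC by 0.19 ± 0.03 (adjusted p = 0.000513). CIE Drinking ranged from 11.66 to 11.73 and Air Drinking from 11.38 to 11.64, without overlap. Against each run of Air Drinking alone it was 0.18 ± 0.04 (adjusted p = 0.0167) and 0.19 ± 0.04 (adjusted p = 0.0131), so its size held in both and the call did not. Sf3b3, the large scaffold of SF3B, rose by 0.17 ± 0.04 (adjusted p = 0.00566), and was 0.18 ± 0.05 (adjusted p = 0.0447) and 0.16 ± 0.05 (adjusted p = 0.0813) against the 2 runs. Hnrnph1 on 1437267_x_at was the other probeset called in Comparison 4 in PFC, at 0.30 ± 0.07 (adjusted p = 0.00707, a call lost with the 2 groups alone in the fit and without the low-weight arrays), and Sf3b1 on 1418562_at rose by 0.17 ± 0.03 in Comparison 6 (adjusted p = 0.00145). This Hnrnph1 probeset was dim, at 4.98 to 5.70 in Air Drinking.

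**Figure D5:**
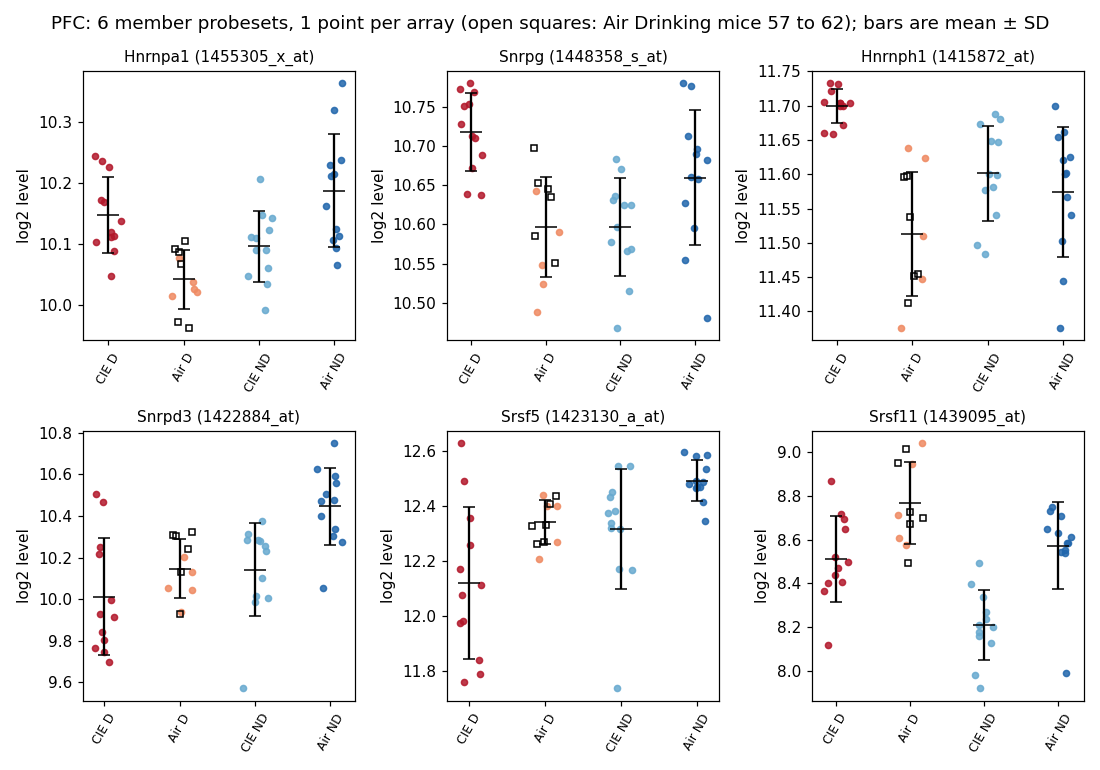
Log2 level in PFC of 6 member probesets, 1 point per array by group, with bars at mean ± SD. Open squares are Air Drinking mice 57 to 62, which lie among the other Air Drinking mice, and Hnrnph1 in CIE Drinking sits above all Air Drinking arrays.

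Outside PFC the remaining comparisons called few members. Comparison 3, drinking against no drinking under vapor, called 4 in CeA (1.6% of all probesets) and 2 in BNST (0.434%). These were Srsf11 (0.66 ± 0.12), Hnrnpr (0.53 ± 0.12) and both raised Sf3b2 probesets (0.52 ± 0.12 and 0.32 ± 0.08) in CeA, and the same Sf3b2 probesets in BNST (0.51 ± 0.10 and 0.31 ± 0.07), where both calls were lost without the low-weight arrays. In HPC (0.0954%) and NAC (0.0229%) Comparison 3 called no member, with 19 of 137 and 55 of 138 at an unadjusted p under 0.05, where 15.6% and 20.3% of all probesets were. Comparison 5 called no member in NAC (0.00286%), HPC (0%), BNST (0%) or CeA (0%), and Comparison 2, Comparison 6 and the interaction called none in these 4 regions, where the share over all probesets was 0% each. At an unadjusted p under 0.05 Comparison 5 had 4 to 11 members per region, where 3.05% to 8.09% of all probesets were, and Comparison 6 had 4 to 24, where 5.53% to 10.7% were. Comparison 2 had 17 of 138 in NAC (6.29% of all probesets), 33 of 137 in HPC (10.2%), 10 of 138 in BNST (9.52%) and 12 of 137 in CeA (9.44%). Of the same numbers of members the interaction had 25 (11.7% of all probesets), 14 (9.24%), 39 (23.9%) and 7 (11.4%). With a mean for each run, the first Air Drinking run against Air NonDrinking called 6 members in HPC (4 higher and 2 lower), 2 in NAC, 1 in CeA and none in BNST or PFC, and the second run called none in any region. The shares called over all probesets are not given for these fits. At an unadjusted p under 0.05 the first run had 28 in BNST (13.5% of all probesets) and 30 in PFC (16.6%). It also had 29 in HPC (14.9%), 14 in NAC (8.70%) and 15 in CeA (9.58%). The second run had 24 in PFC (17.9%), 17 in NAC (10.7%), 13 in HPC (8.01%), 19 in BNST (8.52%) and 2 in CeA (2.47%). Sf3b2 on 1429362_a_at was 0.64 ± 0.07 above Air NonDrinking in HPC in the first run (adjusted p = 9.70e-08) and -0.29 ± 0.07 in the second (adjusted p = 0.102).

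Other parts of the splicing machinery were measured beside the members, by the brightest probeset in Comparison 4. Of 56 spliceosome genes of other names, Lsm4 fell in PFC (-0.23 ± 0.05) and Snrnp70 rose (0.27 ± 0.05) and Sart1 fell (-0.12 ± 0.03) in NAC, and none was called in HPC, BNST or CeA. Of 21 SR-related genes and SR protein kinases, Srrm2, a speckle scaffold, rose in NAC (0.28), HPC (0.38) and CeA (0.36), Srpk2, which phosphorylates SR proteins, rose in NAC (0.26) and HPC (0.40), and Dyrk1a fell in HPC (-0.15). Of 31 splicing regulators of neurons, Rbfox2 rose (0.52 ± 0.10) and Syncrip and Nova1 fell (-0.13 ± 0.03 and -0.21 ± 0.05) in HPC, with none called elsewhere. The medians of the 3 lists in HPC were -0.016, -0.066 and -0.060, beside -0.022 over all genes. Of their other probesets in HPC (6.25% called over all genes), the first list had 7 higher and 1 lower of 86. The second had 9 higher of 58 and the third 8 higher and 4 lower of 96. In CeA (3.45%) 6 of 86, 7 of 58 and 6 of 95 were higher. HPC minus PFC was called lower for 9 of 142, 8 of 79 and 13 of 126 probesets (1.71% of all), and higher for 6, 1 and 6. Such calls were thus not particular to the members.

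Cell type markers were read beside these results, by the brightest probeset of each gene. Of 7 microglial markers Cx3cr1 rose in HPC (0.34 ± 0.08) and NAC (0.23 ± 0.06) in Comparison 4, and the medians of the list were 0.048 and 0.031. Of 7 oligodendrocyte markers none was called in any region in Comparison 4, and their median was -0.32 in CeA and between -0.06 and 0.09 elsewhere. In PFC the astrocyte gene Gfap rose by 0.89 ± 0.17 in Comparison 1 and 0.70 ± 0.17 in Comparison 3 and had an interaction of 1.22 ± 0.24, and the oligodendrocyte gene Mobp an interaction of 0.38 ± 0.09. The mean level of the 7 microglial genes ranged from 9.80 to 10.20 in CIE Drinking and from 9.79 to 10.21 in Air NonDrinking in HPC, and that of the 7 oligodendrocyte genes in CeA from 10.76 to 12.47 and from 10.81 to 12.39. The mean of 7 choroid plexus genes ran in CeA from 8.68 to 13.13 in CIE Drinking and from 8.93 to 12.85 in Air NonDrinking. In HPC it ran from 6.53 to 7.11 and from 6.37 to 6.98. Given that spread, a missing call on these genes in CeA says little. The choroid plexus gene Kl was -0.62 ± 0.14 in Comparison 1 in BNST (limma, adjusted p = 0.00761). Astrocyte, neuronal, endothelial and choroid plexus markers gave no call by the brightest probeset in Comparison 4. Of their other probesets in that comparison, astrocyte markers had 1 higher and 1 lower in NAC, 1 higher in HPC and 1 higher in CeA, of 22, neuronal markers 1 higher in HPC and 1 in CeA, of 6, and oligodendrocyte markers 1 higher in HPC, of 14. Region genes also moved in PFC. Cux2, a gene of upper cortical layers, was -0.67 ± 0.15 in Comparison 1, 0.74 ± 0.15 in Comparison 6 and -0.94 ± 0.21 in the interaction, all called, and the 3 accumbens genes, none called, had medians of 0.52, -0.79 and 0.89 there. The part of these markers and region genes in the members' differences was not tested.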

How the data were processed

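RNA of 5 brain regions was hybridized to Affymetrix mouse whole-genome expression arrays. The deposited log2 values were made by the authors, who used RMA with quantiles matched inside a region, followed by ComBat on hybridization batch. Regions were normalized apart, so levels were compared within a region only. Hybridization batch is not in the labels and was not used here. Groups came from the labels. The number of arrays, 8 to 12 a group, sets the precision. Some probesets lacked values in 4 regions.

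Members and gene lists were chosen with earlier results of these data known. All probesets were fitted with limma 3.58.1 in R 4.3.3, with 1 mean per group, default empirical Bayes variances and p adjusted by Benjamini-Hochberg for each region and comparison. The fit was tried on simulated independent normal values without runs of mouse numbers, so this trial does not bear on those runs. Region differences came from 1 fit of all regions, over 43893 probesets. The same mouse number in 2 regions was taken as 1 animal from the titles alone. There were 51 numbers, more than the animals the study's account of its groups gives, so numbers and animals may not match 1 to 1. The fit with the mouse as a block had a consensus correlation of 0.0146. Named were members with a call, plus those of each family with the smallest adjusted p in Comparison 4 or the highest level. Air Drinking was refitted with 1 mean per run of mouse numbers, within-gene differences were tested and low-weight arrays (below 0.4) were left out, all chosen after seeing the data. Probeset symbols came from the platform annotation and promoters from RefSeq. The comparisons' p-values are two-sided.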

Additional observations from a re-analysis of the deposited data

Results flagged for a closer look

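Only 3 groups held 8 to 10 arrays, all of them Air NonDrinking, and the called member probesets of their regions gave 24 pairs of probeset and group to look at. The pairs share arrays and are not independent, and chance alone flags about 1 in 20 independent groups. In 3 pairs an array lay far from the others, judged by its gap to the nearest array over the range of the group: the lowest BNST array on Hnrnpab 1459880_at (0.548), the lowest CeA array on Sf3b2 1456040_at (0.697) and the highest CeA array on Srsf11 1439095_at (0.535).

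The difference between CIE Drinking and Air NonDrinking itself differed from that in PFC in other regions. In BNST, Hnrnpab 1448144_at (-0.32) and Srsf10 1418526_at (-0.31) were lower. In CeA, Hnrnpr 1452030_a_at (0.96), Srsf11 1439095_at (0.77) and Sf3b2 1456040_at (0.49) were higher. In HPC, Srsf1 1428100_at (-0.39), Srsf10 1418526_at (-0.36), Hnrnpa2b1 1433830_at (-0.31), Hnrnpab 1448144_at (-0.33), Hnrnpf 1456664_x_at (-0.32), Hnrnph1 1415872_at (-0.19) and Hnrnpdl 1428224_at (-0.56) were lower, and Hnrnpr 1452030_a_at (0.91), Srsf11 1439095_at (0.70) and Sf3b2 1456040_at (0.41) higher. In NAC, Snrpc 1416197_at was lower (-0.21). Hnrnpr, Srsf11 and Sf3b2 were also called between the 2 runs of Air Drinking mice in HPC, and Srsf1 on another probeset.

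In PFC the vapor difference itself differed between drinking and nondrinking mice for Hnrnpa1 on 1455305_x_at (0.20), 1436549_a_at (0.30) and 1455740_at (0.45), for Snrpg (0.18) and for Srsf2 (-0.38).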

How the results depend on the processing

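Of the 60 log2 fold changes called, 13 kept direction and call under all alternatives tried and 47 lost the call under at least 1. Averaging a gene over its probesets, which dilutes a single probeset by construction, lost 38 calls and turned Hnrnpab in HPC to 0.0098, and it gave 3 members called in Comparison 4 in HPC and 1 in CeA. Except where stated, the cause of a change was not tested.

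Air Drinking was split by mouse number after the values were seen. Against mice 23 to 32 alone, Comparison 1 called 0 members in PFC, HPC and BNST, and against mice 57 to 62 alone 0, 11 and 11. Comparison 6 in PFC called 0 with either run, and with the first run alone it called 6 in HPC, 2 in NAC and 1 in CeA, where the whole group gave none. For these Comparison 6 counts the shares over all probesets are not given. The split leaves 4 to 8 arrays a run.

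With the mouse as a replicate block, pairing arrays of 1 animal, the region differences from PFC called 28 probesets in HPC (26 without it), 8 in CeA (7), 3 in BNST (3) and 1 in NAC (1), and the 26 were all kept. Array quality weights gave 44 in HPC, 9 in BNST and 7 in NAC. Over all 34263 probesets they gave 2812, 778 and 704, where the main fit gave 1152, 193 and 56. Without low-weight arrays there were 16 in HPC, 3 in CeA, 2 in NAC and 2 in BNST, of which 1 was among the 3 before. Over all 34263 probesets 830, 227, 143 and 122 were then called, in that order of regions.

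Array quality weights raised the member probesets called in PFC to 13, 5, 9, 5, 5 and 7 in Comparisons 1 to 6 and 13 for the interaction, to 14 in Comparison 4 in NAC, and to 16, 4 and 7 in Comparisons 1, 3 and 4 in BNST. By brightest probesets they gave 4 in NAC and 3 in HPC in Comparison 4. At an adjusted p of 0.05 the PFC counts were 9, 12, 9, 17, 4 and 10, and 12 for the interaction. Comparison 4 then gave 12 in NAC and 6 in BNST, Comparison 1 gave 10 in HPC and 9 in BNST, and Comparison 3 gave 4 in BNST. By brightest probesets Comparison 4 gave 7 in PFC, 4 in NAC and 5 in HPC. The shares over all probesets are not given for these counts, so a change particular to the members cannot be read from them.

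Fits holding just the 2 groups at hand gave other counts, and the counts of this paragraph also lack the shares over all probesets. PFC gave 0 in Comparisons 2, 4 and 6 and 5 in Comparison 3, HPC gave 0 in Comparison 1, BNST gave 1 and 6 in Comparisons 1 and 4, and the brightest probesets gave 0 in PFC and HPC in Comparison 4. Trended robust variances gave 5 in Comparisons 2 and 3 in PFC and 2 brightest probesets in HPC. Leaving out dim probesets gave 5 in Comparison 3 in PFC and 2 brightest in HPC. A second quantile normalization gave 2 probesets in NAC in Comparison 4, none of them brightest (0), and 2 brightest in HPC. Without _x_at and _s_at probesets the PFC interaction called 2 and HPC 0 by brightest probesets. Without low-weight arrays PFC called 1 probeset in Comparison 4, also by brightest probesets (1), 4 in Comparison 5 and 0 in Comparison 6, NAC 7 in Comparison 4 and BNST 0 in Comparison 3. The number of arrays and the lack of background signals limit what small differences can show.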
